A study of Mus musculus with 22 samples.

Results

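Fractions 1, 2 and 3 of the coronal series, the end of the sliced mouse brain that carried hindbrain and cerebellar transcripts, were compared with fractions 4 to 10 of the same brain. A fraction is a slab of successive slices whose RNA was pooled and hybridised to 1 array. Genes were taken into the comparison when a probe with a RefSeq identifier was marked well above background by the scanner software on at least 2 of the 3 arrays of fractions 1 to 3. The rule kept 16114 of 20129 genes with such a probe, or 80.1%. It left out 4015 genes, of which 171 were well above background on 4 or more of fractions 4 to 10, so genes seen only in the rest of the brain were mostly outside it. Conversely, 350 member genes were well above background in none of fractions 4 to 10, and these could be kept only through fractions 1 to 3.

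All 10 arrays came from the brain of 1 untreated male C57BL/6J mouse, an inbred laboratory strain, out of 22 arrays from 3 such mice in the series. The titles give the age as 7 days after birth, while the age field of the labels gives 3 days. Fractions 1 to 3 formed the first group (3 arrays) and fractions 4 to 10 the second (7 arrays), with slabs 10 and 11 pooled in fraction 10. No fraction was measured again in another animal, so every p-value below measures the spread between successive slabs of 1 brain. The labels do not say from which end the slices were numbered, and the end is named here only from marker genes. Because each slab is bulk tissue, fewer cells of a type and less RNA per cell cannot be told apart.

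The hindbrain and cerebellum hold cell groups with well-known transcripts. Hox genes encode homeodomain transcription factors expressed in nested domains of the hindbrain and spinal cord, and they are silent in the forebrain and midbrain. In the first weeks after birth the cerebellum still makes granule cells, the most numerous neurons of the brain, from dividing precursors on its surface that answer to Sonic hedgehog from Purkinje cells, while the brainstem myelinates ahead of the forebrain.

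The arrays of fractions 1 and 2 stood apart from the other 8 before any gene was compared. The slope of the spike-in control RNAs was 0.867 and 0.815 on them, outside the range the scanner software accepts, and 0.949 to 1.07 on fractions 3 to 10. On them 37483 and 40139 of 55600 probes were well above background, against 29596 to 32880 on the others. Levels are given throughout on a log2 scale on which 0 marks the 75th percentile of an array's processed intensities, and levels of different probes are not compared. When the member genes were split by mean level into 3 sets of 5370 to 5372 genes, the median dim gene was 0.37 higher on fractions 1 and 2 than on fractions 4 to 10, and the median bright gene was 0.28 lower. On fraction 3 the 3 sets differed from fractions 4 to 10 by medians of 0.01 to 0.02. Fractions 1 and 3 to 8 shared a slide, fraction 2 was on another, and fractions 9 and 10 were together on a further one. The part of these array differences in the results was not tested, and the main counts and lists are therefore also given for fraction 3.

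**Figure D1:**
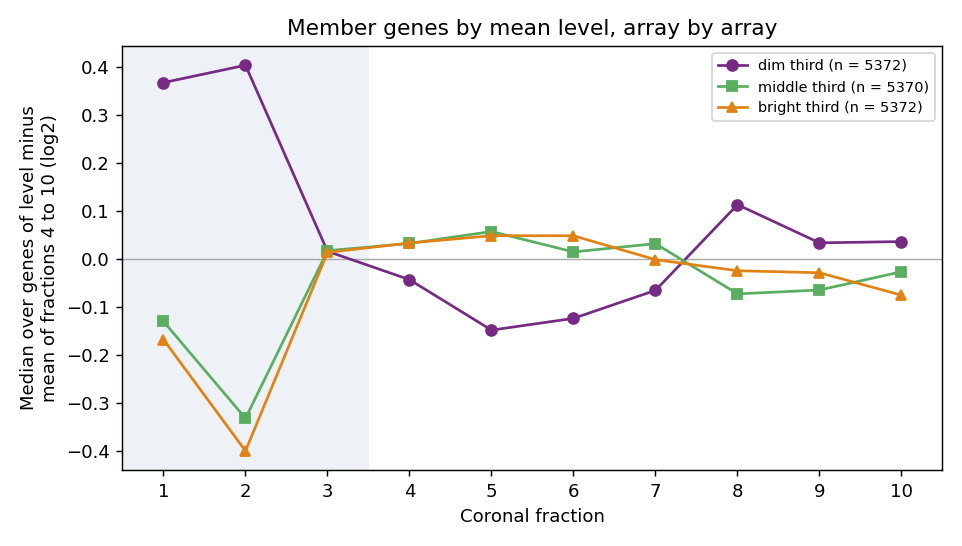
Median over member genes of the level (log2) minus the gene's own mean over fractions 4 to 10, for each coronal fraction and for 3 sets of genes by mean level (1 array per fraction, shaded: fractions 1 to 3). Dim and bright genes part on fractions 1 and 2, and the 3 sets lie together on fraction 3.

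The identity of the 3 fractions was read from 4 marker genes. Pcp2, a Purkinje cell gene, had levels of 6.08, 6.46 and 6.70 in fractions 1, 2 and 3, against a lowest, median and highest level of 0.02, 0.64 and 4.67 in fractions 4 to 10. It was 39.4-fold higher (log2 difference 5.30 ± 0.89 SE, adjusted p = 0.009), and the groups did not overlap, with fraction 4 lying between fraction 3 and the rest. Hoxb5, a Hox gene of the caudal hindbrain, fell steeply within the group, from 4.44 to 0.68 and -1.75, against -6.93, -5.07 and -1.83 (lowest, median, highest) in fractions 4 to 10. It differed by 6.14 ± 1.34 (adjusted p = 0.019), while fraction 3 exceeded fraction 4 by little and fraction 3 alone was not called (adjusted p = 0.371). Hoxa3 behaved alike, at 2.02, 0.84 and -1.78 against -6.39, -4.59 and -2.70 (difference 4.90 ± 0.99, adjusted p = 0.0145). Hoxb5 and Hoxa3 were each well above background on 3 of the 7 arrays of fractions 4 to 10. With each signal of those arrays raised to at least the faintest one counted as well above background there, called the floored rise below, they rose by 5.34 and 4.43.

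Barhl1, a homeobox gene of the granule cell lineage, was the marker that did not pass. Its brighter probe read 1.16, 1.84 and 2.58 in fractions 1 to 3 and 0.08, 0.60 and 1.89 (lowest, median, highest) in fractions 4 to 10. The groups overlapped at fraction 4, and the difference was 1.16 ± 0.40 (adjusted p = 0.0778). A second Barhl1 probe gave 0.96, 2.81 and 3.42 in fractions 1 to 3 and a difference of 4.59 ± 1.33 (adjusted p = 0.0476), so its probes disagree in size. Of the 4 markers 3 were thus called higher, and fraction 4 was the highest of fractions 4 to 10 for Pcp2, Hoxb5 and Barhl1.

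Promoter windows of 5 genes are shown, each from 1 group described below: Pcp2 (Purkinje cells), Gabra6 (granule cells), Hoxa5 (Hox genes), Mki67 (cell division) and Emx1 (forebrain factors). Each runs 5′ to 3′ over 300 bases around the gene's start, from RefSeq on GRCm38.p6, and CG dinucleotides are in capitals. Pcp2 lies at chr8:3625498-3625797 on the minus strand and is the first of its 4 listed starts, and Gabra6 at chr11:42321023-42321322, minus. Hoxa5 lies at chr6:52204538-52204837, minus, Mki67 at chr7:135716330-135716629, minus, and Emx1 at chr6:85187681-85187980, plus.
Pcp2: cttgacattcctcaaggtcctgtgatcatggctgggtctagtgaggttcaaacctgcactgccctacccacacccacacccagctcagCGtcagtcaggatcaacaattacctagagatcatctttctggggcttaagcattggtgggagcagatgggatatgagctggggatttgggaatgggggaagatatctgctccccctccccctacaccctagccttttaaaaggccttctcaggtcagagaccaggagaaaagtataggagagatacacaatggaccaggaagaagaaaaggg
Gabra6: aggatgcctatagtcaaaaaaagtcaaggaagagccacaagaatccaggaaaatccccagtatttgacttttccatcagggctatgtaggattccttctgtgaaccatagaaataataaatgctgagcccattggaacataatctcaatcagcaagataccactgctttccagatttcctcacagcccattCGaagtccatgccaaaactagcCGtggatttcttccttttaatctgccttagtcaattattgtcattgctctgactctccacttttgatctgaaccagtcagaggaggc
Hoxa5: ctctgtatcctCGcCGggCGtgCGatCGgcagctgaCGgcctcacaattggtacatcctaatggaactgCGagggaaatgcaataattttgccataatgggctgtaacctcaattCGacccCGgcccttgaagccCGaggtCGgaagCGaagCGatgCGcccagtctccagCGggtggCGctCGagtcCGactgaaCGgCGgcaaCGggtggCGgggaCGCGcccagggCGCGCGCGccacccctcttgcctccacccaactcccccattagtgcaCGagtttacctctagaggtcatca
Mki67: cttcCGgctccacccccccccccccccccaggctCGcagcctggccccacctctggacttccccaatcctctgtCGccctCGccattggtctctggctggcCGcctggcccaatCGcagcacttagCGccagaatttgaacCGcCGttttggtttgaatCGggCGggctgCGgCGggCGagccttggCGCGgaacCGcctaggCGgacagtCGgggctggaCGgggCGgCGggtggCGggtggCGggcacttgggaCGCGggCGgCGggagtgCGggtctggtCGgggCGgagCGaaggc
Emx1: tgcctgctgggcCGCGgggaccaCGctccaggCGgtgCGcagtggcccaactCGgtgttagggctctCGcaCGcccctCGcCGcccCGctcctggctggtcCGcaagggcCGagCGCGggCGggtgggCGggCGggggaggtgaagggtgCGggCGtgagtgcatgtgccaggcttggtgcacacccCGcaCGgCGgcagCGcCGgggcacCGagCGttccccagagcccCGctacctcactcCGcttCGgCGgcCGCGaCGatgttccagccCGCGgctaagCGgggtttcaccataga
The letters CG, which read the same on both strands, occurred 1 time in the Pcp2 window and 2 times in that of Gabra6, but 29, 32 and 37 times in those of Hoxa5, Mki67 and Emx1. These counts do not stand for the groups. The median was 19 over the Purkinje cell list, 15 over granule cell, 17 over Hox, 24.5 over cell division and 16 over forebrain factor genes. Over the 27025 genes with a window of this length the median was 7, 94.2% held at least 1 CG and 26.8% held 20 or more, while the median over member genes was 18. The letters TATAAA, searched on both strands, were in none of the 5 windows, in 14.2% of all and in 9.22% of those of member genes. A window was found for 12786 of the 16114 member genes.

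**Figure D2:**
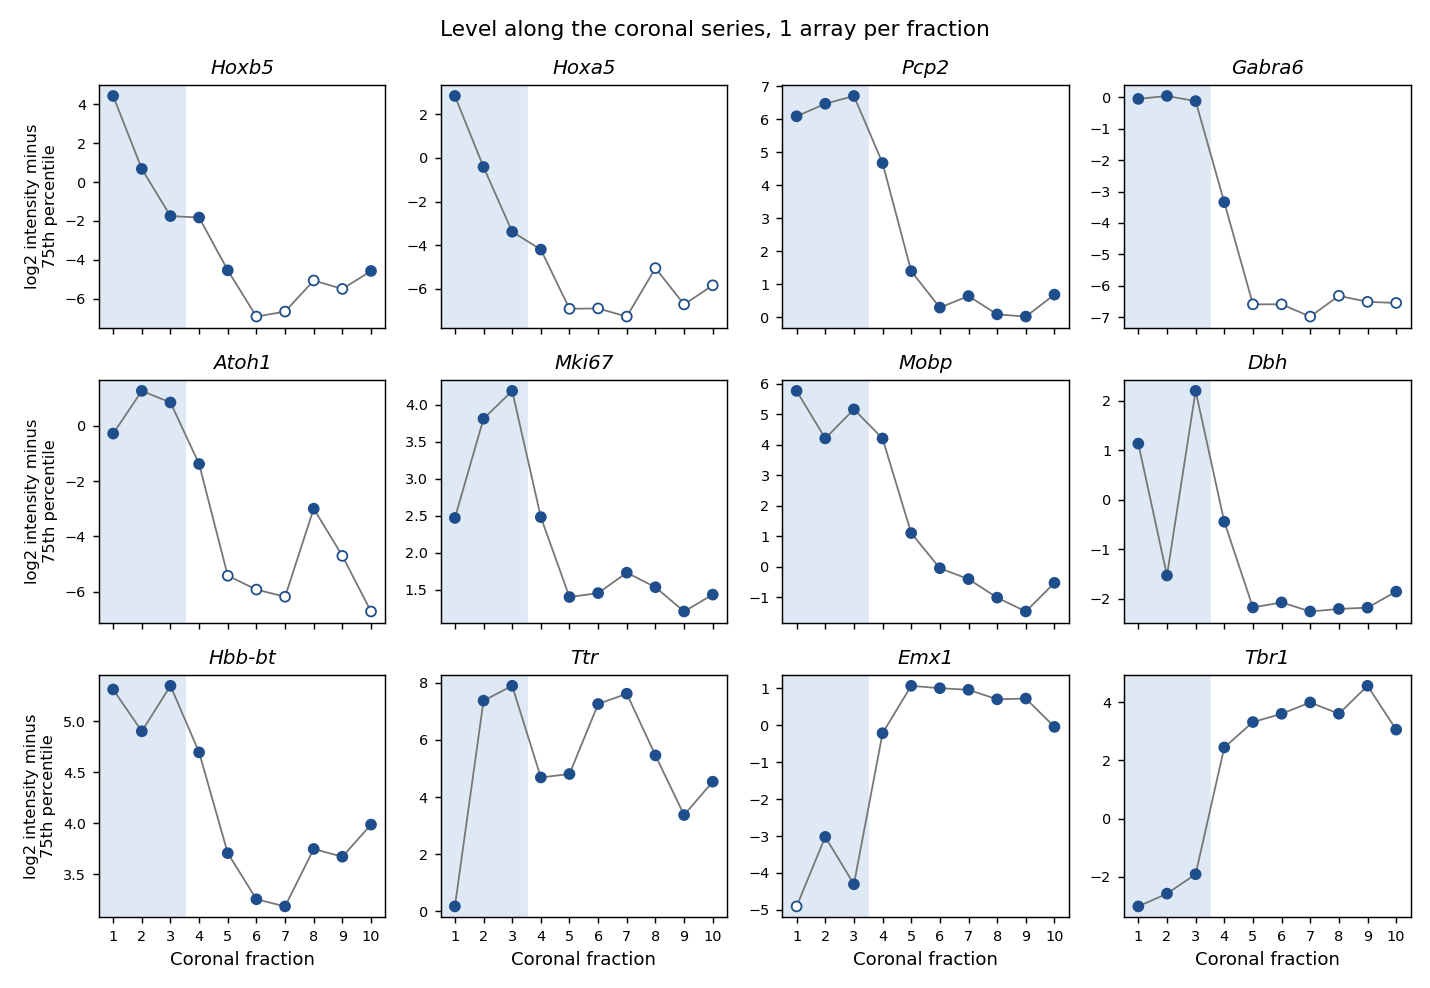
Level (log2, with 0 at the 75th percentile of each array) of 12 genes in the 10 coronal fractions, 1 array each, with filled points well above background, open points not, and fractions 1 to 3 shaded. Hoxb5 and Hoxa5 fall from fraction 1 onward, Pcp2, Gabra6 and Atoh1 stay high to fraction 3 and drop through fraction 4, Mki67 climbs from 2.47 in fraction 1 to 4.19 in fraction 3, and Emx1 and Tbr1 run the other way.

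Of the 16114 member genes, 1097 (6.81%) were higher and 1936 (12%) lower in fractions 1 to 3, by limma at an adjusted p under 0.05. Over all 39164 probes tested, 6.62% were called higher and 7.81% lower, so the share of members called higher was near the background. All 3 levels lay above all 7 of fractions 4 to 10 in 1176 members (7.30%), called or not, and in 6.81% of all probes tested, and they lay wholly below in 2176 members (13.5%) and 8.93% of all probes. Fraction 3 alone lay above all of fractions 4 to 10 in 4397 of the 16114 members and in 21.4% of all probes. It lay below all of them in 3488 members and in 18.9% of all probes. In both directions the share of members was the larger, also where a list below is set beside all probes. The median difference was -0.04 over the members and 0.17 over all probes tested. When each array was centred on its median in place of its 75th percentile, the median over all probes moved to -0.40 and the split from 36.2% to 12.4% higher among the calls (152 higher, 1072 lower). With the slide as a block, which in effect compares fractions 1 and 3 with 4 to 8 on 1 slide, 36 genes were higher and 108 lower. Without fraction 2 the counts were 175 and 297, and without fraction 3 they were 1916 and 2744. Leaving out fraction 5, 6 or 7 gave 655 to 676 higher and 1038 to 1078 lower, and without fraction 9, 1209 were lower.

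The 12 largest rises among genes with separated groups and well above background on at least 4 of fractions 4 to 10 ran from 3.61 to 5.44. Some Hox genes, seen on fewer of those arrays, rose by more and are given below. Mybpc3, known as a myosin-binding protein of heart muscle, stood at 1.94, 2.48 and 2.24 against -4.36, -3.64 and -0.83 (lowest, median, highest), a rise of 5.44 ± 0.66 (43.4-fold, adjusted p = 0.00389). Tex14, known from the bridges between male germ cells, stood at 1.07, 1.65 and 1.70 against -4.45, -3.89 and -1.14 (rise 5.11 ± 0.64, adjusted p = 0.00435). Both were even across the 3 fractions and highest of the remainder in fraction 4. Neither is in a list of hindbrain or cerebellar genes used here. Among transcription factors, Skor1 rose by 4.59 ± 0.71, En2 by 4.32 ± 0.80, Prdm13 by 4.06 ± 0.65, Tfap2a by 3.88 ± 0.80 and Pax3 by 3.78 ± 0.80, with adjusted p between 0.00784 and 0.0168. En2, a homeobox gene of the midbrain-hindbrain junction and cerebellum, read 1.88, 3.17 and 2.76 against -2.63, -2.24 and 1.36. Mab21l1, also of developing cerebellum, rose by 3.62 ± 0.77, the transmembrane gene Tmem125 by 3.97 ± 0.76, and the myelin genes Mobp and Mal by 4.79 ± 1.07 and 3.61 ± 0.64. In fraction 3 alone these 12 genes differed from fractions 4 to 10 by 3.35 (Mal) to 5.58 (Pcp2), at adjusted p of 0.0926 to 0.244, so they were not called there, and with the slide as a block Mybpc3 alone of the 12 kept its call (adjusted p = 0.048).

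Other genes were well above background only in fractions 1 to 3. They could enter the comparison only through the fractions where they were high, as could genes well above background on 1 of fractions 4 to 10, so no p is given for either. Together these made up 144 of the 1097 genes called higher, and where a list below holds such rises, the number on genes seen (well above background) on 2 or more of those arrays is given. Among the 1097, 76 were well above background on none of fractions 4 to 10, so only a lower bound of their rise is known, set against the faintest signal that counts as above background on each array. Uts2 and Uts2b, which encode the urotensin peptides made by brainstem and spinal motor neurons, were at least 3.63-fold and at least 4.91-fold higher. Uts2 read -2.64, -3.50 and -2.44 in fractions 1, 2 and 3, and Uts2b -1.27, -3.21 and -2.72. Tlx3, a homeobox gene of excitatory hindbrain and spinal neurons, was at least 3.05-fold higher, at -2.50, -3.06 and -3.77. The membrane protease gene Tmprss13 was at least 4.82-fold higher, the lectin gene Reg3b at least 3.23-fold, the DNA helicase gene Brip1 at least 2.66-fold, the cytokine gene Il19 at least 2.65-fold and the adipokine gene Adipoq at least 2.63-fold.

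Among the largest falls on genes well above background in all of fractions 1 to 3 were 7 genes of cortex and other forebrain. Tbr1, a T-box factor of glutamatergic cortical neurons, read -3.03, -2.59 and -1.92 against 2.45, 3.61 and 4.57, a 65.2-fold difference (log2 -6.03 ± 0.42, adjusted p = 0.000368). Fraction 4 was the lowest of the 7 yet far above fraction 3. The others were Gda (guanine deaminase), Kcnj4 and Kcnh3 (potassium channels), Crym (a thyroid hormone binding protein), Rprml and Icam5 (telencephalin, an adhesion protein of forebrain neurons), with log2 differences of -4.98 to -4.22. These 7 kept their call with the slide as a block, at adjusted p values of 0.00779 (Icam5 and Kcnh3) to 0.0214 (Crym).

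**Figure D3:**
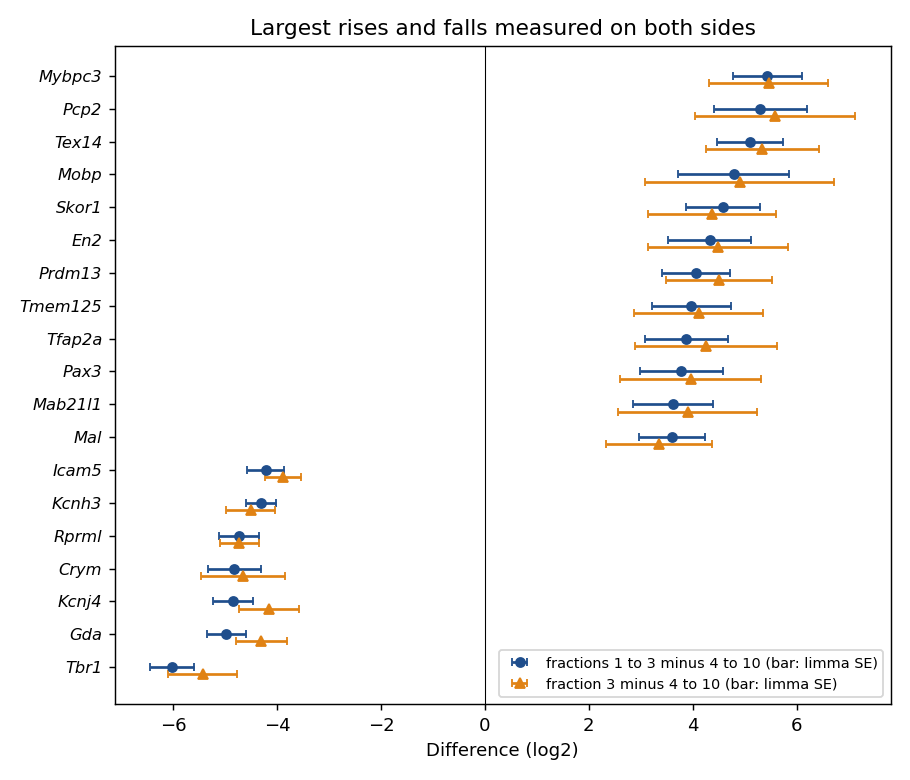
Log2 difference from fractions 4 to 10 of the 12 largest rises and the 7 falls named in the text, for fractions 1 to 3 together (circles) and fraction 3 alone (triangles), with limma standard errors. Triangles of the 12 rises lie between 3.35 and 5.58. That circle and triangle share a side of 0 follows from the choice of genes, which required all 3 fractions to lie beyond the others.

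Hox genes were graded within the 3 fractions. Of 23 Hox genes listed, 17 were members, and 12 of these rose, while 5 were not called and none fell. Of the 12 rises 4 (among them Hoxa3, Hoxb5 and Hoxc4) were on genes seen on 2 or more of fractions 4 to 10. The other 8 calls support nothing, since those genes were kept through fractions 1 to 3. Hoxa3 and Hoxb5 are also markers from which the end was named, so their rises are no separate evidence for it. The rise was 3.20 to 6.14 in 11 of the 12, each well above background on 1 to 3 of the 7 arrays of fractions 4 to 10, and the floored rise was 2.73 to 5.34. Hoxd1, well above background on none of fractions 4 to 10, was at least 1.51-fold higher. The level fell in order from fraction 1 to 2 to 3 in 16 of the 17. Hoxa5 read 2.85, -0.41 and -3.39, with -4.21 in fraction 4 and a median of -6.73 over fractions 4 to 10 (floored rise 4.26). It was well above background on 1 of those 7 arrays, so the median is a signal under the floor. Hoxc4 read 3.69, 1.10 and -1.05, below the -0.35 of fraction 4 in its last value (rise 5.84 ± 1.33, adjusted p = 0.0216, floored rise 5.20 with 2 of the 7 arrays well above background). The median member exceeded fractions 4 to 10 by 4.92 in fractions 1 and 2 and by 2.29 in fraction 3. Of the 6 listed Hox genes outside the rule, Hoxc8 and Hoxd8 were well above background in none of fractions 1 to 3, and Hoxb1, Hoxb7, Hoxb8 and Hoxc6 in 1 of them. Hoxb8 read -0.17, -6.85 and -7.19, Hoxc6 read -0.04, -5.50 and -6.87, and Hoxb7 read 2.10, -6.71 and -6.99. Hoxa7, the member that did not fall in order from fraction 1 to 3, read 0.32, 0.96 and -4.15, with -0.36 in fraction 8 (difference 2.17 ± 1.19, adjusted p = 0.209). Hoxa7 and Hoxb6, neither of them called, were well above background on all 7 arrays of fractions 4 to 10. Hoxd3, not called either, was highest in fraction 10 (-1.11), against -1.20 in fraction 1. Hoxb3, seen on 1 of fractions 4 to 10, was not called through the probe used (floored rise 2.98). Another Hoxb3 probe, also seen on 1 of them, passed with an unfloored difference of 4.81. That call supports nothing for the same reason, and the probes disagree in it. In fraction 3 alone limma called 0 Hox genes, 6 had an unadjusted p under 0.05, and 10 of the 17 exceeded all of fractions 4 to 10, against 21.4% of all probes. Of these 10, Hoxa2, Hoxa4, Hoxa5, Hoxb2, Hoxc5 and Hoxd1 were kept through fractions 1 to 3, so they support nothing here. Without fraction 2, 1 Hox gene was called, and with the slide as a block 0 (15 at an unadjusted p under 0.05). The 15 include genes kept in that way.

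Cerebellar neuron genes rose in part. Of 19 member genes on the granule cell list, 11 rose, 8 of them seen on 2 or more of fractions 4 to 10, and 8 were not called (median difference 1.87). The rise was 1.62 to 5.37 in those 8, while Cbln3 and Tlx3, well above background on none of fractions 4 to 10, were at least 1.11-fold and 3.05-fold higher. Gabra6, a GABA receptor subunit of mature granule cells, read -0.05, 0.04 and -0.12 in fractions 1 to 3, -3.34 in fraction 4 and -6.98 to -6.32 in fractions 5 to 10. Fraction 4 was the single array of the 7 well above background, and the floored rise was 4.41. Atoh1, the factor that marks granule cell precursors, read -0.28, 1.26 and 0.84 against -6.71, -5.42 and -1.38 (rise 5.37 ± 1.07, adjusted p = 0.0139, floored rise 4.59 with 2 of the 7 arrays well above background). Neurod1 rose by 3.47 ± 0.58, Pax6 by 2.78 ± 0.54, Zic1 by 2.09 ± 0.47 and Cbln1, a synaptic organiser of granule cells, by 1.62 ± 0.30. Of the 19, 2 were highest of the 3 fractions in fraction 1, 10 in fraction 2 and 7 in fraction 3, and of the 19 Purkinje cell genes 4, 6 and 9 were.

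On the Purkinje cell list, 9 of 19 member genes rose, 8 of them seen on 2 or more of fractions 4 to 10, 1 fell and 9 were not called (median difference 1.10). The 8 include Pcp2, a marker from which the end was named. Beside Pcp2, the calcium binding genes Pvalb and Calb1 rose by 2.99 ± 0.69 and 1.90 ± 0.40, the LIM homeobox genes Lhx5 and Lhx1 by 2.72 ± 0.74 and 2.29 ± 0.41, and Skor2, a corepressor that Purkinje cells need to mature, was at least 2.22-fold higher. Dner, a Notch ligand also present in cortex, fell by 0.83. Fraction 3 alone showed 14 of the 19 granule cell genes and 14 of the 19 Purkinje cell genes above all of fractions 4 to 10. Over all probes 21.4% lay so in fraction 3, as did 4397 of the 16114 members. There 0 of either list were called by limma, while 14 and 10 had an unadjusted p under 0.05. Without fraction 2, 3 and 2 were called higher, and with arrays centred on their medians 7 and 2. With the slide as a block 2 and 0 were called (12 and 11 at an unadjusted p under 0.05). Those 2 were Gabra6 and Tlx3, kept through fractions 1 to 3, so both calls support nothing. Cbln3 and Skor2 were kept in the same way, and all of these are among the genes counted above for fraction 3. Among 9 members of the list for cerebellar interneurons and Bergmann glia, 3 rose: Ptf1a, the selector of cerebellar GABA neurons, by 3.78 ± 0.88 (floored 2.81), Hopx by 2.16 ± 0.33 and Gdf10 by 1.84 ± 0.45. Of 9 members of the isthmus and midbrain-hindbrain list, En2, Pax8 (floored rise 1.84, seen on 1 of fractions 4 to 10) and Meis1 (2.48 ± 0.56) rose and 6 were not called. Limma called 0 of either list in fraction 3 alone (3 and 3 higher at an unadjusted p under 0.05) and 0 with the slide as a block (4 and 3), and without fraction 2 it called 1 and 0 (3 and 3).

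Genes of cell division rose as a list. All 24 members of that list were called higher (1 of the 25, Aurkb, was not a member), by 0.91 (Pcna) to 2.23 (Bub1), with a median of 1.62. Through other probes Cdk1, Tpx2 and Foxm1 were not called, with differences of 0.50 ± 0.24, 0.62 ± 0.32 and 1.28 ± 0.41. The proliferation marker Mki67 read 2.47, 3.81 and 4.19 in fractions 1 to 3 against 1.20, 1.45 and 2.48 (lowest, median, highest), so that fraction 1 lay level with fraction 4 and fractions 2 and 3 lay above (rise 1.88 ± 0.38, adjusted p = 0.0138). Ccnb1, the mitotic cyclin, read 2.14, 3.11 and 3.50 against 0.42, 0.70 and 1.68 (rise 2.09 ± 0.33, adjusted p = 0.00806). In 23 of the 24 genes fraction 3 was the highest of the 3. All 24 exceeded all of fractions 4 to 10 in fraction 3 alone, against 21.4% of all probes, with a median difference of 2.10. There limma called 0 of them, at adjusted p values from 0.0619, while 23 had an unadjusted p under 0.05. With arrays centred on their medians 0 were called by limma (13 at an unadjusted p under 0.05), without fraction 2, 2 were called, and with the slide as a block 0 were (24 at an unadjusted p under 0.05).

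Of 14 members of the hedgehog pathway list, 5 rose, 1 fell and 8 were not called. Gli1, the transcription factor that the pathway induces, read 0.29, 1.44 and 1.76 against -1.06, -0.77 and 0.35 (rise 1.80 ± 0.36, adjusted p = 0.0139). The receptor Ptch1 rose by 0.82 ± 0.24, the coreceptor Boc by 0.74 ± 0.20 and the inhibitor Sufu by 0.84 ± 0.21, and the coreceptor Cdon fell by 1.08 (another Cdon probe gave -0.21 ± 0.20, adjusted p = 0.451). Ccnd2 and Mycn, targets in granule cell precursors, differed by 0.75 ± 0.23 and 0.56 ± 0.22 and did not pass. The ligand gene Shh was well above background in none of fractions 1 to 3. In limma 0 of the 5 rises were called without fraction 2, with the slide as a block or with median centring (6, 5 and 2 of the list higher at an unadjusted p under 0.05). In fraction 3, 11 of the 14 exceeded all of fractions 4 to 10, against 21.4% of all probes, and limma called 0 (6 higher at an unadjusted p under 0.05).

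Hindbrain transcription factors and transmitter genes were mixed. Of 17 members of the hindbrain factor list, 6 rose, 2 of them seen on 2 or more of fractions 4 to 10, 1 fell and 10 were not called. Phox2a, which specifies visceral motor and noradrenergic neurons, had a floored rise of 3.35. It read -0.88, -1.83 and -0.70 in fractions 1 to 3, then -3.60 in fraction 4, and was well above background on 1 of the 7 arrays of fractions 4 to 10. Of the homeobox genes of hindbrain and spinal interneurons, Lhx4 rose by 3.51 ± 0.93 (floored 2.17) and Lbx1, seen on 1 of fractions 4 to 10, had a floored rise of 1.31. Without fraction 2, 2 of the list were called higher, with the slide as a block 1, and in fraction 3 alone 0 by limma (2 at an unadjusted p under 0.05). These counts do not set apart genes kept through fractions 1 to 3, which held 4 of the 6 rises. Of 9 members of the serotonin and noradrenaline list 1 rose and 8 were not called. That 1 was Dbh, the enzyme that makes noradrenaline, which read 1.13, -1.53 and 2.20 against -2.26, -2.17 and -0.44. It rose by 2.48 ± 0.70 (adjusted p = 0.0438), although fraction 2 lay below fraction 4, and it kept its call with the slide as a block (adjusted p = 0.0458) but not with median centring or with no scaling. The noradrenaline transporter gene Slc6a2 peaked in fraction 3 as well, at -0.31 against -2.69 and -3.35 in fractions 1 and 2, and did not pass (adjusted p = 0.0541). Tph2, the serotonin enzyme of the brain, was highest in fraction 4 (-1.58) and lower in fractions 1 to 3 (-3.00, -3.87 and -3.72).

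Among 12 members of the motor neuron list, 2 rose (1 of them seen on 2 or more of fractions 4 to 10), among them Chat, the acetylcholine enzyme, by 2.20 ± 0.56, and 10 were not called, with 9 highest in fraction 1 of the 3. Without fraction 2, 1 was called, and limma called 0 with the slide as a block and 0 in fraction 3 alone (4 and 1 higher at an unadjusted p under 0.05). Glra1, the adult glycine receptor subunit, had a floored rise of 1.10 and was seen on 1 of the 7 arrays, whereas the GABA enzyme genes Gad1 and Gad2 fell by 1.17 and 1.24, and these 3 calls were lost without fraction 2, with the slide as a block and in fraction 3 alone. Of the vesicular glutamate transporters, Slc17a7, typical of cortex, fell by 3.01, from levels of 0.74 to 1.95 to levels of -1.63, -1.43 and -1.43 (adjusted p = 0.000975). Slc17a6, typical of brainstem and thalamus, read 2.91, 2.12 and 2.84 within the range of fractions 4 to 10 (0.49 to 3.32, difference 0.41 ± 0.64, adjusted p = 0.646).

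Myelin genes rose with a dip in fraction 2. Of 24 members, 14 rose, by 1.33 to 4.79, and 10 were not called (median difference 1.83). Mobp read 5.77, 4.21 and 5.17 in fractions 1 to 3 and -1.47, -0.41 and 4.21 (lowest, median, highest) in fractions 4 to 10, so that fraction 2 lay level with fraction 4. Mag, an adhesion protein of myelin, rose by 3.35 ± 0.81 and Cnp by 1.78 ± 0.47. In 18 of the 24 genes fraction 1 was the highest of the 3. The lineage factors Olig2 and Olig1 and the precursor gene Gpr17 were not called, with differences of 0.09 ± 0.23, 0.10 ± 0.22 and 0.27 ± 0.45. Mbp, another main myelin protein, read 2.25, 2.20 and 2.56 against 2.23 to 3.05 through its brightest probe and was not called either. The probes of Mbp disagree, since another read 5.46, 3.88 and 4.34 against -0.93 to 3.07 and rose by 4.17 ± 0.75 (adjusted p = 0.0105). In fraction 3 alone 18 of the 24 exceeded all of fractions 4 to 10, against 21.4% of all probes, and 0 were called by limma (16 at an unadjusted p under 0.05), and without fraction 2, 4 were called. With arrays centred on their medians 3 were called, and with the slide as a block 0 were (18 higher at an unadjusted p under 0.05).

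Forebrain transcription factors fell. Of 24 listed, 19 were members, and 10 of these fell, none rose and 9 were not called (median difference -3.26). Emx1, of dorsal telencephalon, read -4.90, -3.02 and -4.31 against -0.22, 0.72 and 1.07 (log2 difference -4.68 ± 0.42, adjusted p = 0.00122, with fraction 1 not well above background). Bcl11b, of deep-layer cortical and striatal neurons, and Lhx2, a LIM homeobox gene of the cortex, differed by -3.46 ± 0.35 and -3.26 ± 0.35. Dlx2, Dlx1 and Emx2 were well above background on none of fractions 1 to 3 and on all of 4 to 10, which put them outside the rule, and were at least 57.5-fold, 48.6-fold and 6.59-fold lower. By fraction 3 alone 14 of the 19 lay below all of fractions 4 to 10, against 18.9% of all probes, and 3 were called, among them Emx1 and Tbr1. With the slide as a block 7 were called and without fraction 2, 10 were.

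**Figure D4:**
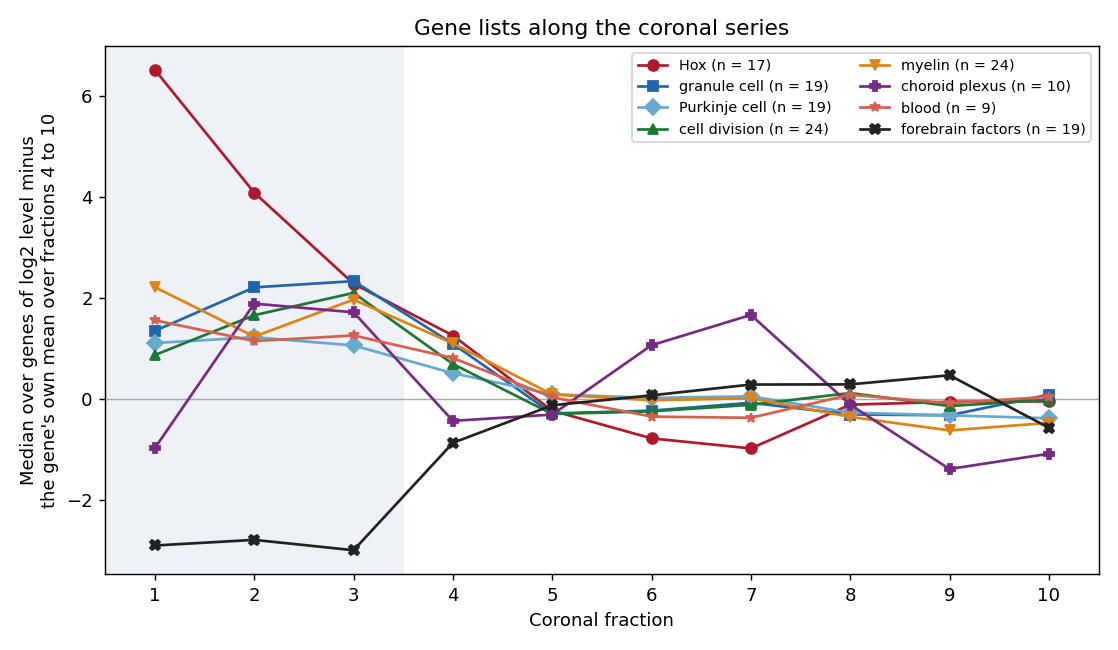
Median over the member genes of each list of the level (log2) minus the gene's own mean over fractions 4 to 10, by coronal fraction (1 array each, fractions 1 to 3 shaded, n = member genes). Hox genes fall from 6.52 in fraction 1 to 2.29 in fraction 3, cell division genes climb from 0.88 to 2.10, and forebrain factors lie between -2.99 and -2.78 in all 3.

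Markers of other tissues also moved with these fractions. Of 9 member blood genes, 7 rose, by 1.13 to 2.07, among them Hbb-bt, a beta globin, at 5.31, 4.90 and 5.35 against 3.18, 3.71 and 4.70 (rise 1.44 ± 0.30, adjusted p = 0.0167). Their summed linear level was 308 to 383 in fractions 1 to 3 and 120 to 270 in fractions 4 to 10, and all 9 were well above background in each of fractions 1 to 3. In fraction 3, 8 of the 9 exceeded all of fractions 4 to 10, against 21.4% of all probes, though limma called 0 there (7 at an unadjusted p under 0.05). Without fraction 2, 1 was called, and 0 with the slide as a block or with median centring (8 and 3 at an unadjusted p under 0.05). Choroid plexus genes separated fraction 1 from fractions 2 and 3. Ttr, the transthyretin of choroid plexus, read 0.17, 7.38 and 7.90 against 3.37 to 7.62, and Kcne2 read -5.38, 0.84 and 1.01. Limma called 0 of the 10, with 1 higher at an unadjusted p under 0.05, and 0 reached that in fraction 3 alone. Their summed linear level was 8.75 to 262 in fractions 1 to 3 and 12.7 to 215 in fractions 4 to 10. Of 10 meninges genes and 5 Schwann cell genes limma called 0, with 1 of each list lower at an unadjusted p under 0.05. Their summed linear levels were 51 to 69.9 and 1.96 to 2.1 in fractions 1 to 3, against 47.1 to 164 and 1.61 to 6.23 in fractions 4 to 10, and fraction 4 was the highest of fractions 4 to 10 in 9 of the 10 meninges genes. Of 8 bone and muscle genes 1 rose (Col2a1, by 1.96) and 3 fell (Myh3 by 2.85, Myh8 by 1.47 and Acta1 by 1.45), and of these limma called 0 with the slide as a block (0 higher and 3 lower at an unadjusted p under 0.05). The part of these markers in the other lists was not tested.

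Fraction 3 alone, whose spike-in slope was in range, left a number of calls that turned on the settings. Against fractions 4 to 10 limma called 6 member genes higher and 16 lower, while over all probes tested 0.0332% and 0.0613% were called. The counts were 270 and 160 with trend and robust estimation, 231 and 78 with normexp and 321 and 188 over probes detected on all 10 arrays. At an unadjusted p under 0.05, 1963 were higher and 1471 lower, and at an adjusted p under 0.1 the counts were 286 and 149. With 1 array on one side, the spread in this fit comes from fractions 4 to 10 alone. Among genes called higher both here and over fractions 1 to 3 and beyond all of fractions 4 to 10, the one measured on both sides was Cenpp, a centromere protein, reading 0.43, 1.23 and 1.67 against -1.15, -0.79 and -0.51 (fraction 3 difference 2.49, adjusted p = 0.0288). A further 3, well above background on none of fractions 4 to 10, are given only as bounds over fractions 1 to 3, and their calls support nothing: Nkx2-9, a homeobox gene of ventral neural tube, was at least 1.36-fold higher, Rag1, a recombinase, at least 1.46-fold, and the non-coding 1700108J01Rik at least 2.13-fold.

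Of the 16 genes called lower, 14 were also called lower over fractions 1 to 3 and lay below all of fractions 4 to 10. Among them were the forebrain factors Tbr1, Emx1 and Nr2e1 (of neural stem cells), the neuronal genes Rprml, Cort (the peptide cortistatin), Kcnh3, Gda, Icam5, Hpcal4 and Rab3b (a synaptic vesicle GTPase), and Atat1 (the tubulin acetyltransferase), Mlip and Mst1r. Their fraction 3 differences ran from -5.43 (Tbr1) to -1.62 (Rab3b), with adjusted p from 0.0128 to 0.0489. The probes of Atat1 disagree: over fractions 1 to 3 the one used differed by -1.93, another by -0.76 ± 0.17 (adjusted p = 0.0218) and a further one by 0.37 ± 0.21 (adjusted p = 0.224). Of the 1097 genes called higher over fractions 1 to 3, 1038 exceeded all of fractions 4 to 10 in fraction 3 and 922 had an unadjusted p under 0.05 there, and 0 had the opposite sign. Of the 1936 called lower, 1834 lay below all of fractions 4 to 10 in fraction 3, 1187 had an unadjusted p under 0.05 and 0 had the opposite sign. These calls include fraction 3, so its direction in them is not independent.

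A separate set of genes was raised on fractions 1 and 2 but not on 3. In 615 member genes both fractions exceeded all of 4 to 10 while fraction 3 lay under their median, and 0 of these were called. In 441 of the 615 the next highest array was fraction 8. Among them were Ermn, on the myelin list, at 4.92, 5.90 and 1.92 (adjusted p = 0.0774), and the brightest probe of Lhx6, a forebrain interneuron factor, at 6.41, 7.31 and 3.22 (adjusted p = 0.157). Another Ermn probe, well above background on all 10 arrays, did not show the pattern. It read 0.91, 0.21 and 1.03 against -0.44 to 1.12 in fractions 4 to 10. Another Lhx6 probe read -6.30, -6.67 and -5.22 against -1.95 to 0.38 in fractions 4 to 10 and was well above background on all 7 of these and on none of fractions 1 to 3, opposite to the first.

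**Figure D5:**
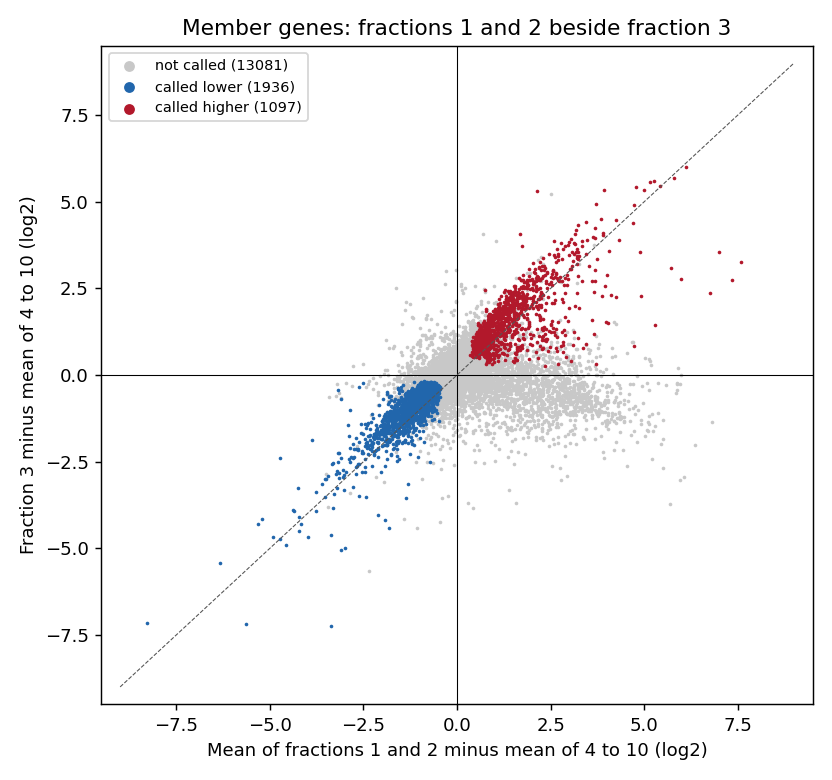
Difference from the mean of fractions 4 to 10 (log2) in fraction 3 against the mean of fractions 1 and 2, for the 16114 member genes, coloured by their call over fractions 1 to 3, with equality dashed. Called genes keep one sign on both axes, Hox genes such as Hoxb5 lie to the right of the line (7.58 against 3.27), and a band of uncalled genes runs to the right near or under 0 on the fraction 3 axis.

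Fraction 4 lay between the groups. Of the genes called higher, fraction 4 was the nearest of fractions 4 to 10 to the mean of fractions 1 to 3 in 55.9%, against 20.1% of all member genes, and among those called lower it was the nearest in 27.2%. Fractions 4 to 6, the slabs next to the group, were also compared on their own. Against them 619 of the 16114 member genes were higher in fractions 1 to 3, a smaller share than the 4.41% of all probes called higher. Another 1318 were lower, a larger share than the 5.08% of all probes called lower. The count of 619 rested on single arrays: without fraction 2 it was 5 higher, without fraction 5, 0 (limma, 1468 at an unadjusted p under 0.05), without fraction 6, 1, without fraction 8, 281, without fraction 9, 68 and without fraction 3, 1888.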

How the data were processed

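Total RNA of 22 brain fractions was measured on 1-colour Agilent mouse arrays designed on mm9. Per the file headers, the authors extracted 1 background-subtracted intensity per spot with Feature Extraction 10.10.1.1. The authors also deposited log2 values, and 99.899% of these lay within 0.02 of the values used here, which were log2 processed intensities, averaged over the spots of a probe and set to 0 at the 75th percentile of the array. Control and outlier spots were left out (131 to 187 outliers per array), as were 81 probes without a value on some array. No spot was saturated. The number of arrays limits the precision.

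Symbols came from a RefSeq table of another assembly, used for names only (26553 of 28087 RefSeq probes). A gene was read from its member probe with the highest median over the 22 arrays. limma 3.58.1 in R 4.3.3 (no trend, not robust) was fitted to 39164 probes well above background on at least 2 of the 10 coronal arrays, with Benjamini-Hochberg adjustment over all of them. It was tested on simulated data. A bound used, per array, the higher of the probe's signal and the lowest signal among probes well above background. Tables were made in Python 3.11.15 with numpy 2.4.6 and pandas 2.3.3, and figures with matplotlib 3.10.9.

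Named genes were those called with separated groups: the 12 largest rises on genes well above background on at least 4 of fractions 4 to 10, the 8 brightest on genes above background on none of them, and the 8 largest falls on genes well above background on all of fractions 1 to 3, with 4 markers and up to 6 genes of each of 19 lists. Genes outside these rules were chosen after their values were seen, and some genes inside them are counted but not reported here. Members, lists and markers were chosen with earlier results of these data known. Alternatives were other scalings and filters, normexp background correction with an offset of 50 (on the median signal, in place of the mean signal that was planned), the slide as a block, negative control RNA a107 as a covariate, the deposited table, all 22 arrays and each fraction left out. Fractions are successive slabs and carry no replicate numbers.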

Additional observations from a re-analysis of the deposited data

Results flagged for a closer look

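Among fractions 4 to 10, 1 array was far from the other 6 by Dixon's ratio of gap to range, which chance gives in about 1 of 20 groups, in 9 of 42 named genes. Fraction 4 was that array in 8 of them. It was the highest for Pcp2 (ratio 0.704), Tex14 (0.737), En2 (0.686), Mal (0.691), Brip1 (0.571), Barhl1 (0.599) and 1700108J01Rik (0.716), all of them genes with higher levels in fractions 1 to 3. It was the lowest for Gda (0.711), which had lower levels there. For Uts2b fraction 9 was the highest (0.649). The levels so singled out for Uts2b (-4.35), Brip1 (-5.30) and 1700108J01Rik (-5.66) were not well above background.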

How the results depend on the processing

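Over fractions 1 to 3, 1097 genes were higher and 1936 lower. The counts were 152 and 1072 with median centring, 272 and 411 with no scaling, 92 and 89 with a107 as a covariate, 36 and 108 with the slide as a block, and 6 and 16 over arrays with the spike-in slope in range. Leaving out 1 fraction gave 175 to 1916 higher and 297 to 2744 lower. Other settings kept both counts within 1.5 times. For fraction 3 alone (6 higher, 16 lower) trend and robust estimation gave 270 and 160, normexp 231 and 78, probes detected on all 10 arrays 321 and 188, no scaling 1 and 9, median centring 2 higher and the slide block 0 and 2 (2131 and 1845 at an unadjusted p under 0.05). Leaving out 1 of fractions 4 to 10 gave 0 to 279 higher (279 without fraction 4, 0 in limma without 5, 6 or 9, with 1586 to 1710 at an unadjusted p under 0.05, 1 without 7, 2 without 8) and 0 to 1.1e+02 lower (the highest without fraction 4, 39 without 10, 1 without 5, 0 in limma without 6, with 1177 at an unadjusted p under 0.05, 6 without 7 or 8, 3 without 9). Against fractions 4 to 6 (619 higher), median centring gave 62, no scaling 23, normexp 1177, quantile normalization 313, no filter 212, and leaving out 1 fraction 0 to 1888. The causes were not tested. Over the named and called list genes the difference turned in none of the fits of the same probe. For Atat1 another probe gave 0.37 in place of -1.93. No paired analysis was possible because fraction numbers are not shared between the groups. A lone array limits fraction 3, and signals near background limit dim genes to bounds.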

Other observations

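The same genes were read in the 2 other brains, each cut along another axis into 6 fractions and measured once per fraction, as values with no test. In the horizontal series Hoxb5 was highest in fraction 5 (1.52), as were Phox2a (-1.64) and Mag (4.85), and it was well above background on 4 of 6 arrays. Cerebellar and dividing cell genes were highest 1 or 2 fractions earlier, Pcp2 and Gabra6 in fraction 4 (5.22 and -1.09) and Atoh1 and Mki67 in fraction 3 (0.34 and 3.24). For 3 of them the other of fractions 3 and 4 was close: Pcp2 read 5.07 and Gabra6 -1.12 in fraction 3, and Mki67 3.20 in fraction 4. With 1 array each, no order between fractions 3 and 4 is read for these 3. Dbh was highest in fraction 4 (1.00), and Emx1 in fraction 1 (1.82), with -1.06 in fraction 6. In the sagittal series Hoxb5 read 0.36 in fraction 2, its highest, and -6.12 in fraction 1, and Phox2a and Dbh were highest in fraction 3 (-1.73 and 0.83). The spike-in slope was out of range on horizontal fractions 1, 2 and 3 (0.891, 0.818 and 0.891), as on coronal fractions 1 and 2. It was also out of range on sagittal fractions 1 and 3 (0.773 and 0.823). The levels given for Pcp2, Gabra6, Atoh1, Mki67 and Emx1 in those horizontal fractions thus come from such arrays. So do the levels of Hoxb5, Phox2a, Dbh and, at 1 end, Emx1 in those sagittal fractions. Sagittal Emx1 was lowest in fraction 4 (-1.11) and higher at both ends (1.08 and 0.73).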
